A study of Mus musculus with 22 samples.

Results

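The comparison described here is that of hearts carrying a VCP transgene with wild-type hearts when neither was under pressure overload. Its members are the libraries labelled VCP TG sham (n = 4) and WT sham (n = 4), chosen by those labels from the table of 2 weeks after surgery, so 8 of the 22 libraries of the series. The mice were of the FVB strain, 3 to 5 months old, and had a sham operation in place of transverse aortic constriction. RNA of the left ventricle was taken 2 weeks later (miRNeasy kit, Qiagen) and turned into libraries with a stranded TruSeq mRNA kit of Illumina. Both groups share strain, age range, tissue, operation and time, and are labelled to differ in the transgene alone. In the sources used here, nothing names the promoter that drives the transgene, the species of its coding sequence or the number of founder lines. Nor do the labels tie each library to an animal, so a p-value here measures the spread between these libraries.

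VCP, valosin-containing protein (also p97), is an abundant ATPase that works as a ring. Adaptor proteins bring it ubiquitinated substrates, which it pulls out of the endoplasmic reticulum membrane, the mitochondrial outer membrane, ribosomes or chromatin and unfolds, mostly for degradation by the proteasome. It also serves autophagy and lysosome repair, and human VCP mutations cause inclusion body myopathy. Genes of these pathways, of the contractile and energy systems of the myocardium, and of the cell types that a piece of ventricle can hold were therefore read as lists.

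The values are transcripts per 1000000 (TPM), whose sum is fixed in a library, and the read depth is unknown. A second view, called rescaled TPM below, divides each value of the 21474 nuclear protein-coding genes by their summed TPM in that library and multiplies by 1000000. It was needed because the make-up of the libraries differed. The 13 mitochondrially encoded genes held 42.7%, 53.0%, 27.9% and 72.9% of TPM in the VCP TG sham libraries 1 to 4, against 50.3%, 46.0%, 49.6% and 56.8% in the WT sham libraries 1 to 4. VCP TG libraries 3 and 4 were the lowest and the highest of all 8, with the whole WT group between them, and the group means differed by -1.56 percentage points (exact two-sided permutation test, p = 0.886). Nuclear protein-coding genes kept 41.5%, 36.3%, 43.9% and 23.6% of TPM in VCP TG, against 34.5%, 40.5%, 33.6% and 28.3% in WT. In all libraries except VCP TG 4, most of the remainder was a single identifier with no entry in the annotation, ENSMUSG00000089855, at 12.7%, 8.24%, 23.3% and 1.47% in VCP TG, against 12.1%, 10.3%, 13.5% and 12.1% in WT.

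**Figure D1:**
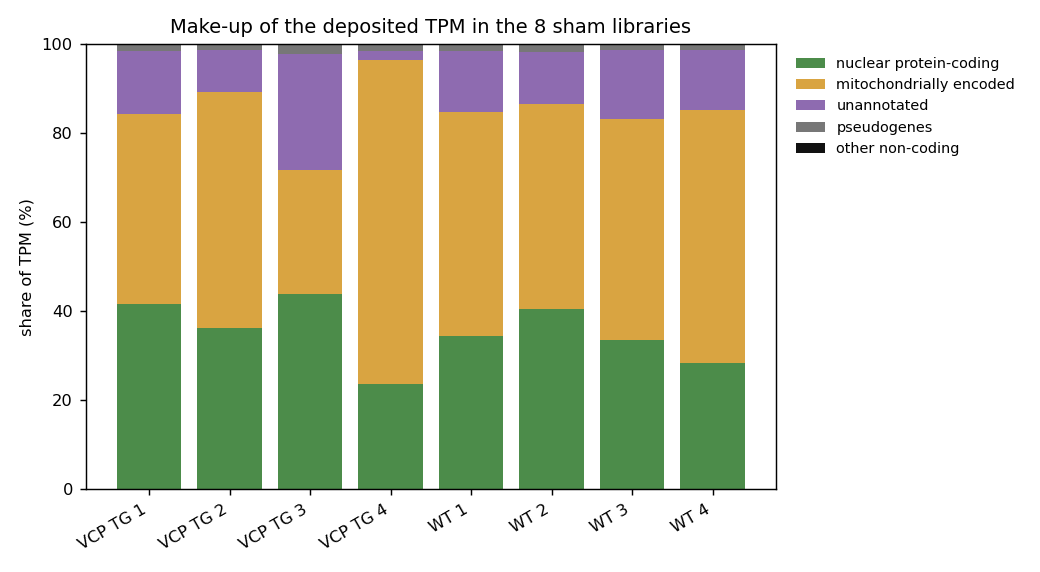
Share of the deposited TPM (%, vertical axis) held by each kind of gene in each sham library, VCP TG on the left and WT on the right, stacked to 100%. The mitochondrially encoded part is narrowest in VCP TG 3 (27.9%) and widest in VCP TG 4 (72.9%), with the 4 WT libraries between 46.0% and 56.8%.

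The transcripts inside the mitochondrial share also shifted their proportions. Of the TPM of these 13 genes, mt-Co1, the catalytic subunit of cytochrome c oxidase, held 13.1%, 11.6%, 10.1% and 6.48% in VCP TG, against 11.2%, 12.8%, 11.4% and 8.48% in WT. mt-Nd2, a core subunit of respiratory complex I, held 4.71%, 5.09%, 4.84% and 7.86% in VCP TG, against 4.34%, 4.68%, 5.10% and 5.80% in WT. VCP TG library 4 was the lowest for the first and the highest for the second, and WT library 4 came next to it in both. These 2 genes were singled out after their values were seen.

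Several libraries stood apart from others of their group. The median SD of log2(TPM + 1) over genes was 0.590 in VCP TG and 0.318 in WT, and 0.431 and 0.290 for rescaled TPM. VCP TG library 4 was the lowest of the 8 for 41.8% of 14840 genes on rescaled TPM, and VCP TG library 3 was the highest for 30.3% of them. VCP TG libraries 3 and 4 held atrial transcripts, and WT libraries 3 and 4 held metallothionein and acute-phase transcripts, at levels that the other libraries of their groups did not reach; both patterns are given with their genes below. Of 1344 olfactory and vomeronasal receptor genes, which ventricles are not known to use, 39.7%, 31.4%, 70.2% and 49.1% were above 0 in VCP TG, against 15.2%, 31.1%, 30% and 32% in WT (difference 20.5 percentage points, exact permutation p = 0.0571, 0.133 after Benjamini-Hochberg adjustment over 7 single values). Of the chamber markers, Myl2, the ventricular regulatory myosin light chain, had rescaled TPM values of 17791, 18940.0, 5228 and 15905 in VCP TG, against 16438, 17463, 14506 and 14995 in WT. It was lowest in VCP TG 3, the only library of the 8 in which the summed atrial markers, given below, exceeded the summed ventricular ones. That library is described as left ventricle like the rest, and ventricular markers were present in it (summed rescaled TPM 11694). The sums are over unlike lists, so their order does not measure a share of tissue. The source of the atrial transcripts in VCP TG 3 was not tested.

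Vcp itself (ENSMUSG00000028452, GRCm38 chromosome 4, 42979963 to 43000507, minus strand) checks the labels, as far as reads of the transgene were assigned to the mouse gene. Its deposited TPM was 89.1, 186, 156 and 73.5 in VCP TG, against 62.9, 82.6, 57.2 and 45.7 in WT. The groups overlapped, since VCP TG 4 lay below WT 2, and the log2 difference was 0.94 (exact permutation p = 0.0571, adjusted 0.133). Its rescaled TPM was 215, 512, 355 and 312 in VCP TG, against 182, 204, 170.2 and 162 in WT. Here all 4 VCP TG libraries lay above all 4 WT libraries, by a narrow margin for VCP TG 1, and the difference was 0.89 ± 0.26 (SE; exact permutation p = 0.0286, the smallest that 4 against 4 libraries allow, adjusted 0.133). The ratio of the mean rescaled TPM was 1.94. A scaling by median of ratios, added after the data were seen, gave 216 to 523 in VCP TG, against 156 to 197 in WT, again without overlap.

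**Figure D2:**
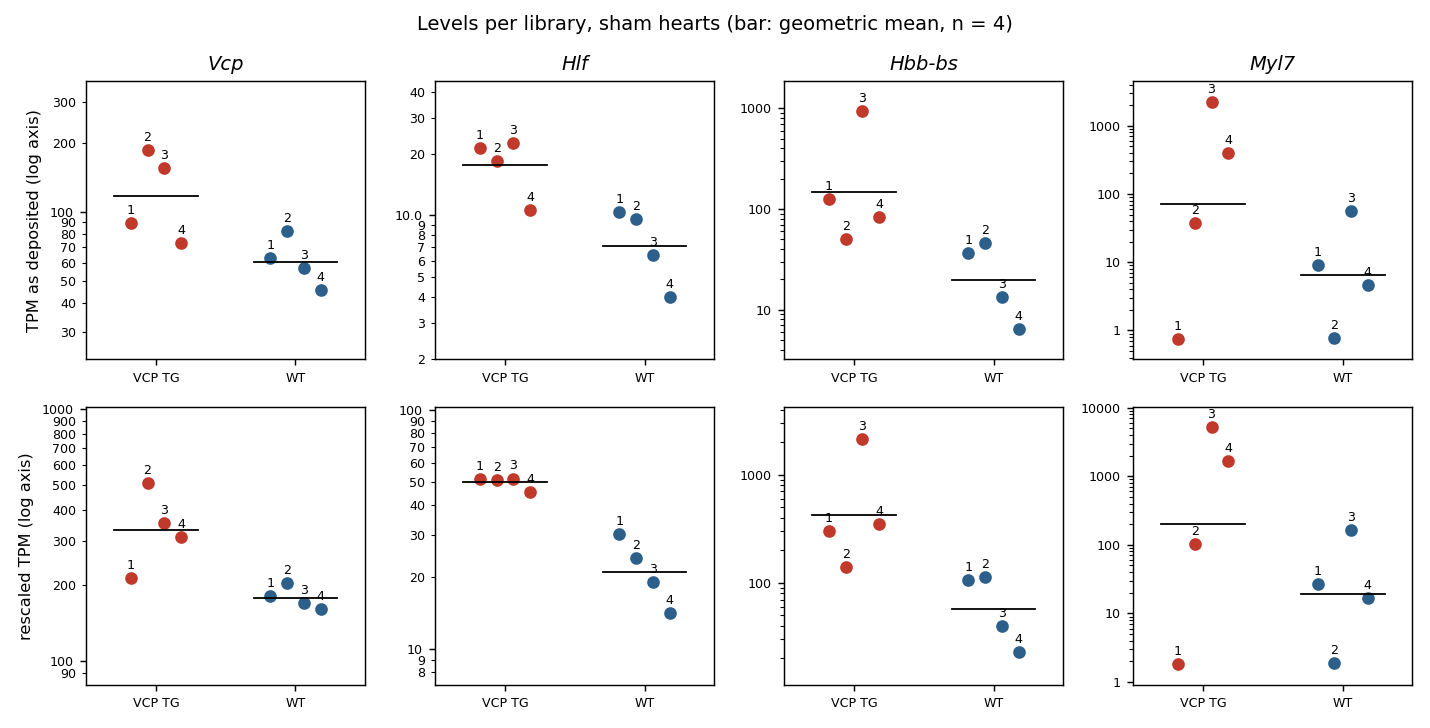
Level per library of Vcp, Hlf, Hbb-bs and Myl7 (columns) in TPM as deposited (top) and in TPM rescaled to nuclear protein-coding genes (bottom), on log axes, with VCP TG left and WT right. Points carry the replicate number and bars are geometric means (n = 4). Vcp overlapped between the groups above and not below, Hlf and Hbb-bs overlapped in neither view, and Myl7 spread widely inside both groups.

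Across all genes very few passed the test. limma on log2(TPM + 1) called 2 of 13901 genes (0.0144%) at an adjusted p under 0.05, both higher in VCP TG, and 319 genes (2.29%) had an unadjusted p under 0.05, of which 139 (1.0%) were higher and 180 (1.29%) lower in VCP TG. On rescaled TPM limma called 0 of 14840 genes (0.0%), with a smallest adjusted p of 0.781, and 836 genes (5.63%) had an unadjusted p under 0.05, of which 226 (1.52%) were higher and 610 (4.11%) lower in VCP TG. The median log2 difference of all genes was -0.03 as deposited and -0.09 rescaled, and the differences of lists below are given relative to the rescaled median as a shift.

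Neither called gene is annotated as protein-coding. Gm21088, an unprocessed pseudogene on the Y chromosome (83537567 to 83551484, plus strand), had deposited TPM values of 2.57, 3.53, 8.30 and 15.4 in VCP TG, against 0, 0, 0 and 1.34 in WT, and rose by 2.51 ± 0.42 (log2, limma adjusted p = 0.0220). The unannotated ENSMUSG00000071466 had deposited TPM values of 1.67, 0.818, 6.83 and 4.84 in VCP TG, against 0, 0, 0 and 0 in WT, and rose by 1.95 ± 0.36 (limma adjusted p = 0.0220). Every VCP TG library was above 0 for both, and WT was at 0 throughout save for Gm21088 in library 4. Both met the filter of 1 TPM in 3 or more libraries through their VCP TG values. A gene can enter in this way only if it is high in that group, so the calls are not separate support for a difference. A listed 0 in this table can also be a failed estimate, and whether the WT values are such was not tested. Neither call held in several other settings: 0 genes were called with a pseudocount of 0.1 or 5, with no filter on low values, with quantile normalization, without the variance trend, or when the TAC groups of the same table were fitted too. Leaving out 1 library at a time gave 17, 62, 4 and 1 calls without VCP TG 1, 2, 3 and 4, against 35, 22, 18 and 5 without WT 1, 2, 3 and 4. Near-identical copies on the Y chromosome can exchange reads, so the level of a single copy is uncertain.

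Because so few genes passed, the genes named next were picked by whether the 4 VCP TG libraries all lay on 1 side of the 4 WT libraries. That was so for 118 of 13901 genes (0.849%) as deposited, 55 higher (0.396%) and 63 lower (0.453%) in VCP TG, and for 456 of 14840 (3.07%) rescaled, of which 112 (0.755%) were higher and 344 (2.32%) lower in VCP TG. In 279 of those 344 genes VCP TG library 4 was the lowest of the 8. In both views at once it held for 56 of 12715 genes (0.44%), 19 higher (0.149%) and 37 lower (0.291%). Of these, 27 were named protein-coding genes with a mean of at least 5 TPM, 8 higher and 19 lower in VCP TG; 7 of the 8, and the 12 of the 19 with the widest gap, are described. None of the 19 genes described passed the limma test in either view.

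Hlf, a PAR bZIP transcription factor under clock control, was higher in each VCP TG library than in any WT library. Its rescaled TPM was 51.5, 50.9, 51.6 and 45.3 in VCP TG, against 30.3, 23.9, 19.1 and 14.1 in WT. The VCP TG libraries were nearly level and the WT libraries spread below them, a difference of 1.20 ± 0.23 (log2 ± SE). The other clock genes with large differences had negative ones and overlapped between the groups, with Ciart, a repressor of the clock, at -0.77 ± 0.26, Per1 at -0.67 ± 0.47 and Tef, the PAR bZIP relative of Hlf, at -0.54 ± 0.41. The clock list as a whole had a shift of 0.04 over 19 genes, 11 above and 8 below the median of all genes. No source used here names the hour of tissue collection.

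Lrrc3b, a leucine-rich repeat membrane protein, had rescaled TPM values of 24.2, 19.1, 19.1 and 26 in VCP TG, against 14.8, 14.8, 8.71 and 5.55 in WT. Cpe, carboxypeptidase E, which trims prohormones, had 175, 161, 184 and 263 in VCP TG, against 153, 140.4, 109.5 and 110.4 in WT. Tfpi, the inhibitor of the tissue factor pathway of coagulation, had 148, 136, 153 and 247 in VCP TG, against 127, 114, 109 and 89.4 in WT. For Cpe and Tfpi the lowest VCP TG library lay close above the highest WT library, and VCP TG 4 was the highest in each of the 3 genes. Uchl5, a deubiquitinase of the proteasome's regulatory particle, had 42.9, 45, 40.8 and 62.3 in VCP TG, against 37.9, 34.6, 29.9 and 37 in WT, a difference of 0.43 ± 0.20. VCP TG 4 was again the highest, and the other VCP TG libraries lay close to WT 1.

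Among the genes lower in VCP TG, Rgcc, a regulator of the cell cycle first described as a complement response gene, had rescaled TPM values of 38.9, 51.7, 47.1 and 24.7 in VCP TG, against 63.8, 79, 259 and 219.7 in WT, a difference of -1.71 ± 0.43. Plscr2, a phospholipid scramblase, had 60, 46.4, 59.2 and 52.2 in VCP TG, against 96.4, 74.2, 173 and 239.9 in WT, a difference of -1.26 ± 0.33. Both were far higher in WT libraries 3 and 4 than in WT 1 and 2, and the margin to VCP TG came from the lower WT pair. Without WT 3 and 4 (an alternative added after the data were seen) the difference was -0.84 for Rgcc and -0.63 for Plscr2.

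The other lower genes were more even within WT, though WT 3 and 4 were again the highest for Ablim1, and for Pparg and Eif2b4 below. Il2rg, the common gamma chain of interleukin receptors, had 13.6, 15.9, 13.5 and 6.54 in VCP TG, against 25.4, 23.8, 22.6 and 29.5 in WT. Prdm16, a transcriptional regulator of cardiac and brown fat identity, had 22.9, 25.1, 29.3 and 16.2 in VCP TG, against 53.7, 33.7, 42.9 and 57 in WT. Ablim1, an actin-binding LIM protein, had 401, 352, 279 and 187 in VCP TG, against 509, 519, 674 and 801 in WT. VCP TG 4 was the lowest for all 3 genes, and the differences were -1.03 ± 0.27, -0.97 ± 0.24 and -1.07 ± 0.27.

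Pparg, a nuclear receptor of lipid storage, stood at 12.4, 13.6, 8.69 and 11.8 in VCP TG, against 16.4, 16.3, 27.6 and 26.9 in WT, with VCP TG 3 lowest. Insl3, an insulin-like peptide, stood at 12.6, 16, 9.92 and 12.7 in VCP TG, against 23.5, 22.7, 31.2 and 21.9 in WT. Eif2b4, a subunit of the exchange factor that recharges the translation initiator eIF2, stood at 47.2, 47.1, 44.6 and 34.2 in VCP TG, against 83.7, 51.8, 102 and 104 in WT, and WT 2 was close to the VCP TG values. Phyhd1, Zfp46, Mrm3 (a methyltransferase of mitochondrial ribosomal RNA) and Podxl (a sialomucin of the endothelial surface) had differences of -0.95 ± 0.25, -0.88 ± 0.23, -0.80 ± 0.22 and -0.70 ± 0.21.

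**Figure D3:**
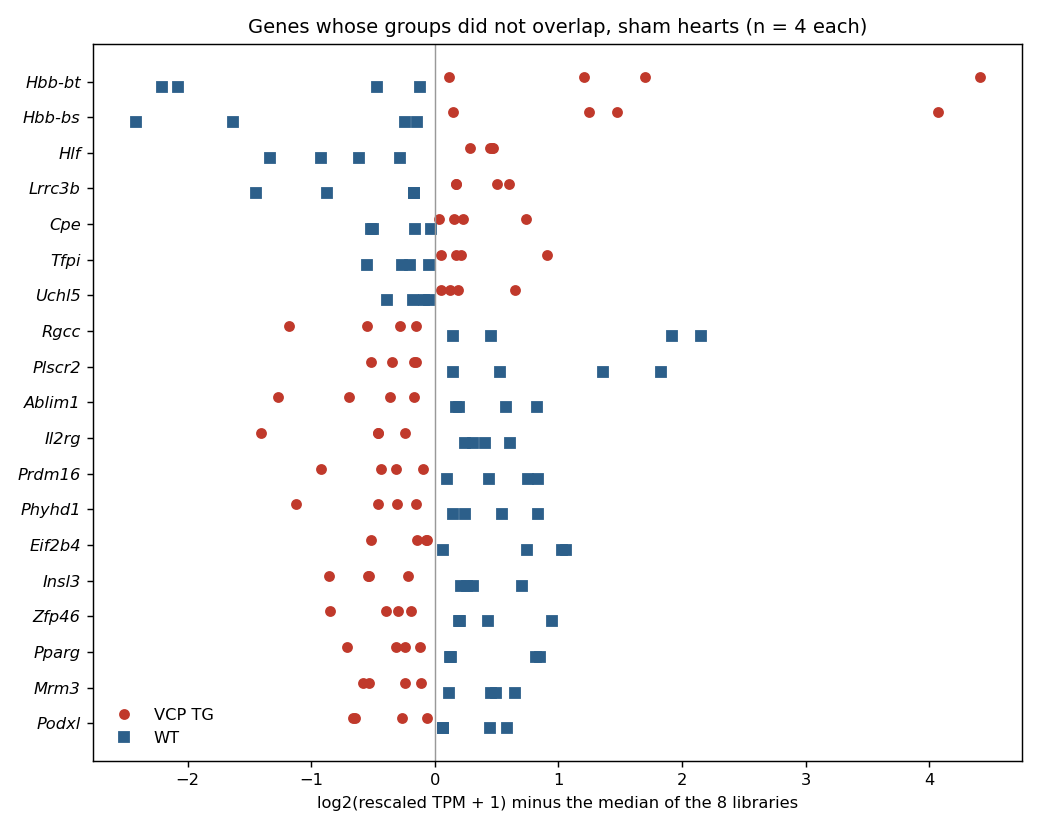
The 19 genes described whose groups overlapped in neither view, as log2(rescaled TPM + 1) minus the median of the 8 libraries (horizontal axis), with VCP TG as circles drawn above WT as squares for each gene (n = 4 each). The 2 beta-globin genes at the top reach above 4 in VCP TG 3 alone, and Rgcc and Plscr2 lie above 1 in 2 WT libraries.

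The gene lists were set beside these values as counts and medians, with no test of a list, and no list member passed the limma test in either view. Counts of members without overlap stand beside 0.755% of all genes higher and 2.32% lower without overlap on rescaled TPM. The plot of all lists gives their medians and members.

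**Figure D4:**
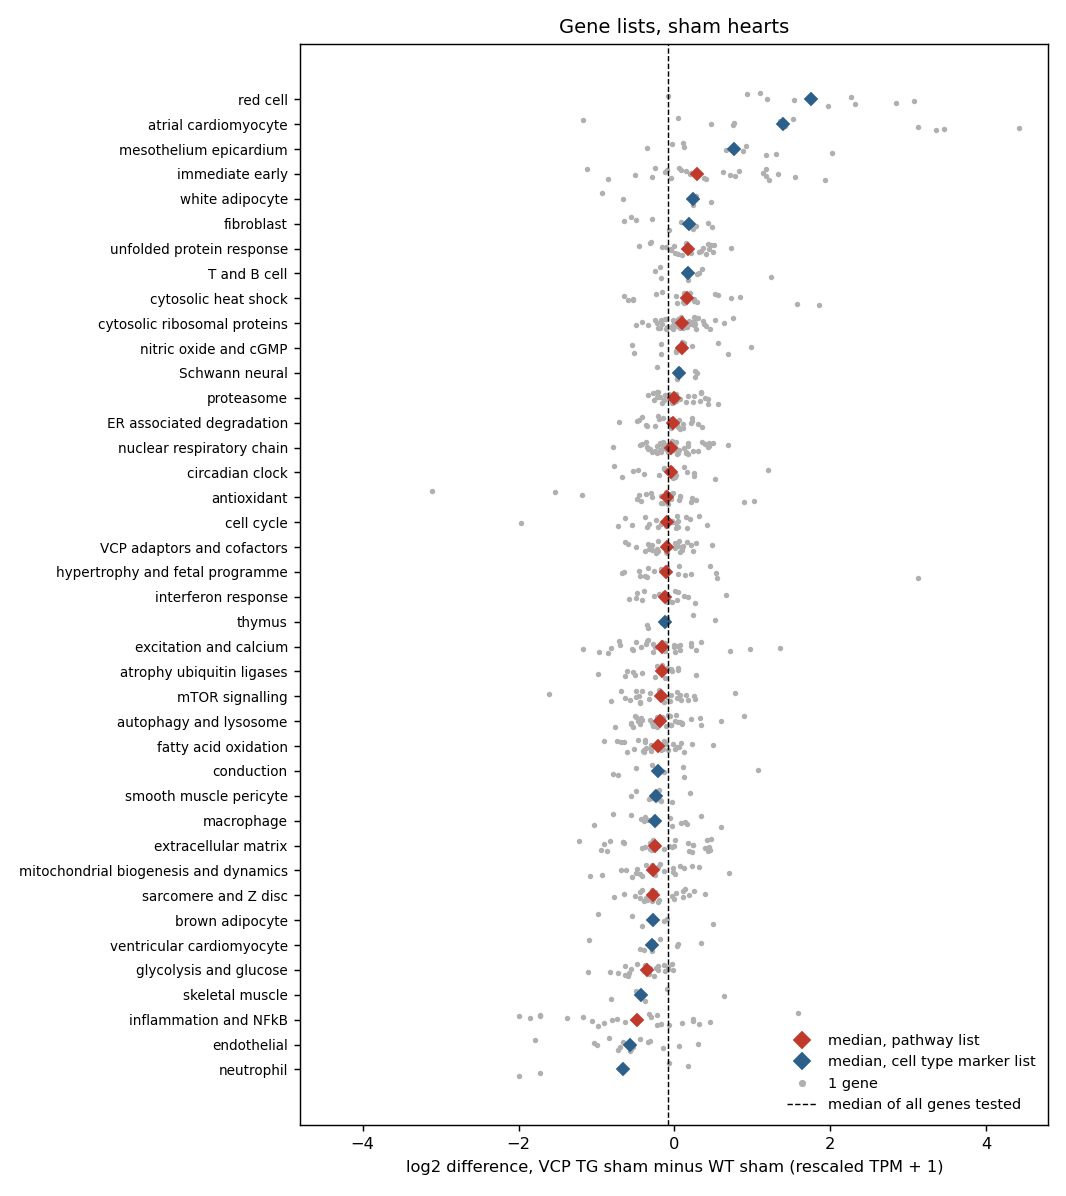
Log2 difference in rescaled TPM, VCP TG sham minus WT sham (horizontal axis), for every member tested of each list with at least 5 tested members. Grey dots are genes, diamonds are list medians (red for pathways, blue for cell type markers) and the dashed line is the median of all genes, -0.09. The medians of the red cell and atrial lists lie above 1 and those of the neutrophil and endothelial lists below -0.5, with most pathway lists near the line.

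VCP's own partners lay near the median of all genes. Of 28 adaptors and cofactors tested, 13 lay above and 15 below that median, with a shift of -0.01, which was 0.04 without VCP TG 3 and 4. Of the 28, 2 did not overlap between the groups, both lower in VCP TG, beside 2.32% of all genes. Ube4b, a ubiquitin chain-extending ligase that binds VCP, had rescaled TPM values of 53.7, 75.4, 74.8 and 37.5 in VCP TG, against 86.7, 80.2, 89.1 and 99.2 in WT, a difference of -0.60 ± 0.24. Sprtn, a DNA-protein crosslink protease that binds VCP, had 8.49, 7.31, 8.68 and 4.44 in VCP TG, against 10.4, 13.1, 13.4 and 9.41 in WT, a difference of -0.63 ± 0.25. VCP TG 4 was the lowest in both. The core adaptors overlapped between the groups: Ufd1 differed by -0.10 ± 0.25, Nploc4 by 0.07 ± 0.22 and Nsfl1c (p47) by -0.23 ± 0.18.

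Of 24 genes of endoplasmic reticulum-associated degradation, the main membrane route that VCP serves, 14 lay above and 10 below the median of all genes (shift 0.07, and -0.02 without WT 3 and 4) and none was free of overlap. The 2 groups overlapped even at the largest difference, in Herpud1, a scaffold of the retrotranslocation complex, at 297, 212, 219.5 and 96.6 in VCP TG, against 325, 217, 521 and 267 in WT. Of 32 proteasome genes 21 lay above and 11 below (shift 0.08), none free of overlap. Psma1, a subunit of the core ring, had 170.4, 224, 101 and 186 in VCP TG, against 132, 153, 90 and 82.6 in WT. VCP TG 3 and WT 3 and 4 were the low libraries for it, and the shift of the proteasome list without VCP TG 3 and 4 was 0.29.

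Chaperone and stress genes of the endoplasmic reticulum lay mostly above the median of all genes. Of 24 genes of the unfolded protein response 19 lay above and 5 below it, with a shift of 0.26, which was 0.28 without VCP TG 3 and 4 and 0.27 without WT 3 and 4. Hsp90b1 (GRP94), the list's member without overlap, had rescaled TPM values of 272, 267, 262 and 298 in VCP TG, against 191, 237, 188 and 212 in WT, an even step of 0.41 ± 0.18. Manf, a secreted factor induced by stress of the endoplasmic reticulum, had 94.8, 64.9, 80 and 70.2 in VCP TG, against 29, 65.9, 37.7 and 62.3 in WT, with WT 2 inside the VCP TG range. Hspa5 (BiP), the chief chaperone of that compartment, had 346, 281, 328 and 146 in VCP TG, against 241, 280.5, 217 and 244 in WT and overlapped widely. Against 112 genes of all (0.755%) higher without overlap, 1 of 24 is a small count, and the 2 members with an unadjusted limma p under 0.05 are to be read against 1.52% of all genes.

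The cytosolic heat shock list had a shift of 0.25, with 16 of 22 genes above the median of all genes and none free of overlap. Hspa1a, an inducible HSP70, had 6.29, 43.8, 15.3 and 31.5 in VCP TG, against 0.909, 50.6, 0.794 and 4.65 in WT, and Hspa1b, its near-identical neighbour, 16.7, 89, 49.4 and 82 in VCP TG, against 4.04, 156, 4.41 and 18.8 in WT. Both varied widely inside WT, where library 2 was above every VCP TG library. The split of reads between these 2 copies is uncertain.

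Autophagy and lysosome genes lay to both sides, 15 above and 23 below the median of all genes (38 tested, shift -0.09, and 0.03 without VCP TG 3 and 4). Bnip3l (NIX), a mitophagy receptor that is also needed when red cells shed their mitochondria, had rescaled TPM values of 168, 162, 438 and 163 in VCP TG, against 113, 116, 132 and 92.9 in WT and was higher without overlap, VCP TG 3 standing apart. Atg9a, the lipid scramblase of the forming autophagosome, had 28.7, 24.7, 23.6 and 14 in VCP TG, against 33.1, 29.1, 41.5 and 29.7 in WT and was lower without overlap. Ctsd, the lysosomal protease cathepsin D, had 434, 386, 410.1 and 197 in VCP TG, against 456, 442, 475 and 461 in WT; VCP TG 4 lay far below the WT range and the other VCP TG libraries nearer to it.

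In the mTOR list (31 genes, 11 above and 20 below, shift -0.09, and 0.05 without VCP TG 3 and 4) 3 members were lower without overlap, beside 2.32% of all genes: Akt2, an insulin-responsive kinase, at -0.50 ± 0.21, Rps6kb1, the S6 kinase, at -0.46 ± 0.21, and Foxo1, a transcription factor restrained by AKT, at -0.41 ± 0.24. Rps6kb1 shows how narrow such a margin was, with 34.5, 45.4, 37 and 23.5 in VCP TG, against 46.2, 47.9, 45.7 and 50.1 in WT rescaled TPM. Ddit4 (REDD1), an inhibitor of mTORC1 that glucocorticoids and hypoxia induce, had 12.5, 7.55, 42.4 and 5.07 in VCP TG, against 20, 14.5, 86.1 and 93.5 in WT; it was high in WT 3 and 4 and in VCP TG 3.

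The hypertrophy genes gave no common direction (21 genes, shift -0.01, which was 0.08 without VCP TG 3 and 4 and 0.05 without WT 3 and 4). Nppb, B-type natriuretic peptide, had rescaled TPM values of 211, 451, 928 and 215 in VCP TG, against 88.2, 414, 297 and 389.6 in WT. Myh7, the slow myosin heavy chain of the fetal heart, had 930.1, 858, 1459.6 and 530.3 in VCP TG, against 1172, 978, 1455 and 1259 in WT, and Acta1, skeletal alpha-actin, 287, 2115, 1036 and 512 in VCP TG, against 501, 900.2, 874 and 2355 in WT. All 3 overlapped, with differences of 0.54 ± 0.55, -0.44 ± 0.30 and -0.38 ± 0.59. Myh6, the main adult myosin heavy chain, differed by -0.35 ± 0.27, Atp2a2 (SERCA2), the calcium pump of the sarcoplasmic reticulum, by 0.22 ± 0.25, and Col1a1, fibrillar collagen, by 0.23 ± 0.37.

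Sarcomere genes had a shift of -0.19 (9 above and 17 below, of 26), which was 0.07 without VCP TG 3 and 4. It was 0.005 without VCP TG 3 alone and -0.12 without VCP TG 4 alone, so the direction came mostly with VCP TG 3. Des, desmin, the intermediate filament at the Z disc, was the member without overlap, at 976, 961, 976 and 509 in VCP TG, against 1108, 1033, 1096 and 1254 in WT; VCP TG 1 to 3 lay just below the lowest WT value and VCP TG 4 far below. Genes of excitation and calcium handling had a shift of -0.07, which was 0.13 without VCP TG 3 and 4. The shift was 0.03 without VCP TG 3 alone and -0.14 without VCP TG 4 alone. The list included 4 genes without overlap among 33, all lower in VCP TG. They include Cacna1c, the L-type calcium channel, at 331, 229.6, 258 and 120.1 in VCP TG, against 348, 342, 415 and 459 in WT, a difference of -0.81 ± 0.29, Jph2, which anchors the dyad, at -0.69 ± 0.35, and Kcna5, a delayed rectifier, at -1.17 ± 0.38. The share of 4 in 33 stands beside 2.32% of all genes lower without overlap. VCP TG 4 held the lowest value in all 4 genes, and likewise in Kcnj11, the pore of the ATP-sensitive potassium channel, at 70.9, 51.2, 85.3 and 16 in VCP TG, against 103, 88.5, 109 and 77.9 in WT.

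Differences in energy metabolism genes also depended on 1 or 2 libraries. The nuclear genes of the respiratory chain had a shift of 0.05 (28 above and 20 below, of 48), 0.37 without VCP TG 3 and 4 and -0.12 without WT 3 and 4. Cox5a, a subunit of cytochrome c oxidase, had rescaled TPM values of 2470.2, 2674, 703 and 2864 in VCP TG, against 1736, 1932, 808 and 735 in WT and was low in VCP TG 3, WT 3 and WT 4. Uqcrc1, a core protein of complex III, had 1127, 873, 692 and 373 in VCP TG, against 1363, 1125, 1253 and 1181 in WT and was low in VCP TG 4. Genes of mitochondrial biogenesis and dynamics had a shift of -0.18 (8 above and 18 below, of 26), and 0.09 without VCP TG 3 and 4. With 1 of that pair left out the shift stayed negative, at -0.11 without VCP TG 3 and -0.10 without VCP TG 4. Of these 26, 2 were lower without overlap, beside 2.32% of all genes, namely Esrra and Esrrb, estrogen-related receptors that drive mitochondrial genes; Esrra had 46.6, 29, 42.5 and 9.46 in VCP TG, against 63.3, 56.7, 58.7 and 58 in WT, a difference of -1.08 ± 0.40, with VCP TG 4 by far the lowest.

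Glycolysis and glucose use had the most one-sided metabolic list, with 4 of 24 genes above and 20 below the median of all genes and a shift of -0.26. Without VCP TG 3 and 4 together the shift was 0.02. It was -0.12 without VCP TG 3 alone and -0.21 without VCP TG 4 alone. Hk2, a hexokinase, had rescaled TPM values of 138, 111, 95.7 and 63.6 in VCP TG, against 151, 144, 171 and 147 in WT, and Pkm, pyruvate kinase, 521, 436, 446 and 195 in VCP TG, against 628, 522, 597 and 592 in WT. Both were lower without overlap, as was Gpi1, at -0.32 ± 0.24, which makes 3 of 24 beside 2.32% of all genes. Fatty acid oxidation genes had a shift of -0.12 (9 above and 25 below, of 34), and 0.16 without VCP TG 3 and 4. Their shift was 0.07 without VCP TG 3 alone and -0.15 without VCP TG 4 alone. Acacb, whose product makes the malonyl-CoA that restrains fatty acid entry into mitochondria, was the member without overlap, at 120.2, 115, 95.2 and 52.4 in VCP TG, against 135, 143, 149.6 and 149 in WT.

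Markers of other cell types were read for the same 8 libraries. In bulk tissue, fewer cells of a type and less RNA per cell cannot be told apart. The endothelial list was lower in VCP TG in 14 of 16 genes relative to the median of all genes (shift -0.48, and -0.31 without VCP TG 3 and 4, -0.27 without WT 3 and 4), and 8 of 16 had an unadjusted limma p under 0.05, beside 4.11% of all genes. On deposited TPM 2 of 16 had such a p, beside 1.29% of all genes lower. Cdh5 (VE-cadherin), the junction protein of endothelium, had rescaled TPM values of 133, 155, 107 and 79.5 in VCP TG, against 166, 183, 188 and 233 in WT and did not overlap. Pecam1 (CD31) had 119, 129.7, 165 and 98.6 in VCP TG, against 169, 150.5, 218 and 226 in WT, with VCP TG 3 inside the WT range, and Sox17, a transcription factor of arterial endothelium, had 8.65, 6.36, 11.8 and 3.01 in VCP TG, against 10.8, 14.8, 45.5 and 58.6 in WT. The summed rescaled TPM of the list was 2337, 2326, 1949 and 1737 in VCP TG, against 2648, 2570, 3948 and 3213 in WT, without overlap. Its summed deposited TPM was 970.3, 843, 855 and 409.6 in VCP TG, against 913, 1040.1, 1326 and 908 in WT, and VCP TG 1 lay inside the WT range. Pericyte and smooth muscle markers had a shift of -0.15 (2 above and 10 below, of 12), and fibroblast markers of 0.28 (9 above and 4 below, of 13). The fibroblast shift was 0.043 without VCP TG 3 and -0.14 without VCP TG 3 and 4.

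Atrial markers followed individual libraries. Myl7, the atrial myosin light chain, had deposited TPM values of 0.756, 37.9, 2269 and 394 in VCP TG, against 9.11, 0.773, 55.6 and 4.69 in WT, a log2 difference of 3.34 (exact permutation p = 0.257, adjusted 0.4). VCP TG 1 was the lowest of the 8 and VCP TG 3 the highest, and without VCP TG 3 and 4 the difference was -0.077 (-0.35 rescaled). Sln, sarcolipin, had rescaled TPM values of 4.12, 56, 3404 and 1916 in VCP TG, against 11, 0, 57.7 and 11.7 in WT, and Nppa, atrial natriuretic peptide, 52.3, 263, 11091 and 2595 in VCP TG, against 59.2, 98.6, 156 and 73.1 in WT. The summed rescaled TPM of the 13 atrial markers was 184, 595, 24959 and 7537 in VCP TG, against 243, 222, 601 and 225 in WT. In the same order the summed ventricular markers were 33629, 34216, 11694 and 29908 in VCP TG, against 31163, 33079, 26766 and 27596 in WT, so VCP TG 3 was the highest in the first sum and the lowest in the second. The ventricular list had a shift of -0.20 (3 above and 7 below, of 10), and of 0.21 without VCP TG 3 and 4. The part of atrial transcripts in the differences of other genes was not tested. For the lists described, shifts without these 2 libraries are given where their sign turned. The sign of some lists that are not described turned as well.

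Red cell transcripts were higher in VCP TG in all 10 tested genes of their list relative to the median of all genes, with a shift of 1.84, and of 1.22 without VCP TG 3 and 4. Hbb-bs, an adult beta-globin chain of haemoglobin, had rescaled TPM values of 300.0, 139, 2134 and 352 in VCP TG, against 106, 114, 39.9 and 22.7 in WT, a difference of 2.84 ± 0.81. Hbb-bt, its tandem partner, had 179.9, 83.8, 1664 and 253 in VCP TG, against 55.7, 71.1, 17.5 and 16 in WT, a difference of 3.08 ± 0.86. Tfrc, the transferrin receptor, had 83.7, 40.4, 56.8 and 48 in VCP TG, against 23.9, 35.6, 28.9 and 26.4 in WT. These genes are among the 4 of 10 that did not overlap, beside 0.755% of all genes, and VCP TG 3 stood far above the rest for both beta-globins. The alpha-globins Hba-a1 and Hba-a2 did overlap, at 75.6, 19.2, 493 and 31.4 in VCP TG, against 12.3, 36.5, 12.3 and 14.8 in WT for Hba-a1. Alas2, the red cell enzyme of haem synthesis, had 87.2, 31, 468 and 46.9 in VCP TG, against 35.5, 29, 47.4 and 15.8 in WT. Whether blood left in the tissue differed between the groups was not tested.

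The beta-globin genes are near-identical, so the division of reads between them is uncertain. The ratio of Hbb-bs to Hbb-bt TPM was 1.67, 1.66, 1.28 and 1.39 in VCP TG, against 1.91, 1.60, 2.28 and 1.42 in WT, overlapping between the groups. Their proximal promoters are shown since the pair moved together across the 8 libraries; each line holds the 120 bases before the RefSeq start on GRCm38.p6, read 5′ to 3′ on the gene's strand, from chr7:103827929-103828048 for Hbb-bs and chr7:103813924-103814043 for Hbb-bt, both minus strand. Capitals mark the CCAAT box, the CACCC box and the TATAA motif on either strand.
Hbb-bs: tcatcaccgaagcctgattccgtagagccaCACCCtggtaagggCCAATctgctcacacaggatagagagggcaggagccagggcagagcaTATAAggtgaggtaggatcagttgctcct
Hbb-bt: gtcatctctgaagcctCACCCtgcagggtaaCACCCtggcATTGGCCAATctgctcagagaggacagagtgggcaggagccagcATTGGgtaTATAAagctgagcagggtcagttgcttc
Both windows held all 3 motifs. Of 32851 RefSeq promoters, windows of the same length held CCAAT in 21.3%, CACCC in 31.7% and TATAA in 11.8%, and all 3 in 0.688%. A match of letters describes the sequence and is not a measured binding site.

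The WT group held its own split. Mt2, a metallothionein that binds zinc and answers to glucocorticoids and inflammation, had rescaled TPM values of 22.1, 25.7, 107 and 18.7 in VCP TG, against 52, 47.6, 1814 and 1574 in WT, and Mt1 had 476, 485, 607 and 325 in VCP TG, against 597, 428, 3764 and 3343 in WT. Cdkn1a (p21), an inhibitor of the cell cycle induced by stress, had 10.9, 17.9, 22.6 and 4.59 in VCP TG, against 9.98, 24, 136 and 181 in WT. WT libraries 3 and 4 stood above all the others in these genes, with WT 1 and 2 within or near the VCP TG range. The same held for Lcn2, an acute-phase protein, at 6.32, 5.92, 3.42 and 9.75 in VCP TG, against 3.71, 6.05, 137 and 62 in WT, for S100a8, a neutrophil protein, at 6.18, 6.80, 13.4 and 0 in VCP TG, against 10.6, 1.62, 100.3 and 65.8 in WT, and for Hmox1, haem oxygenase, at 5.48, 10.2, 12.1 and 10.2 in VCP TG, against 12.4, 10.5, 37.9 and 47.3 in WT. Any difference between the genotypes in such genes rested on that pair: the inflammation list had a shift of -0.39 over 24 genes with all 8 libraries and of 0.18 without WT 3 and 4, the extracellular matrix list one of -0.17 over 34 genes and of 0.11 without them, and the neutrophil list one of -0.57 over 5 genes and of 0.24 without them. Why the pair differed was not tested, and the labels give no date, batch or time of day.

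**Figure D5:**
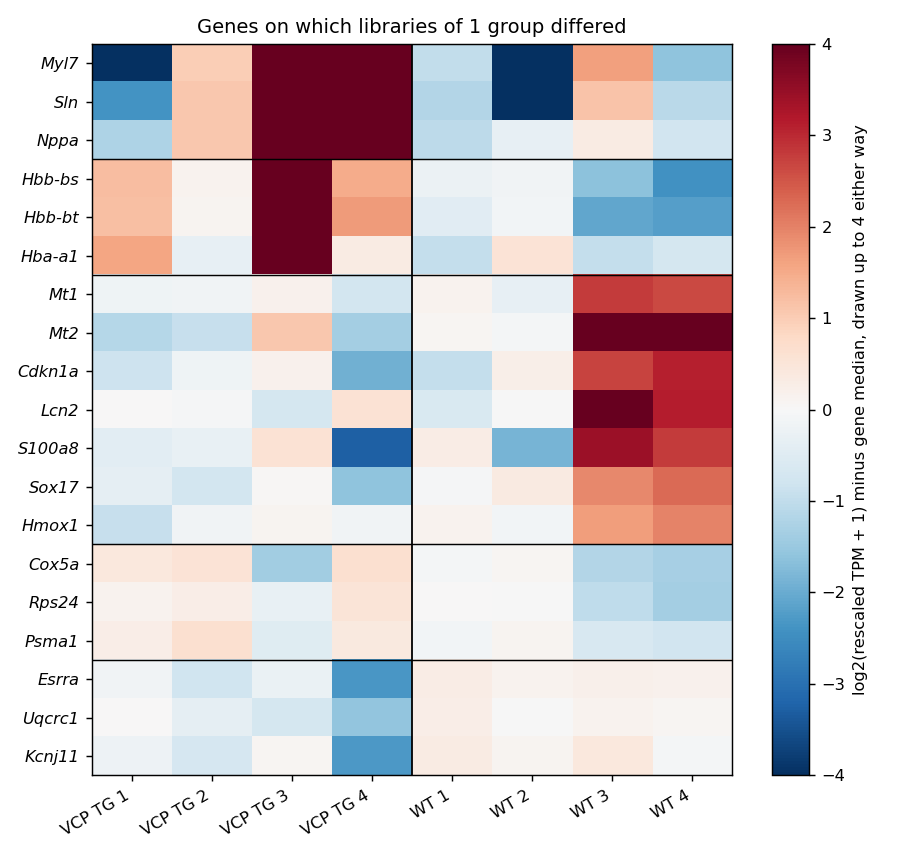
Deviation of log2(rescaled TPM + 1) from the median of the 8 libraries, drawn up to 4 in either direction, for genes named in the text (rows, in 5 blocks) in each library (columns, VCP TG left of the line and WT right). Red is above and blue below the median. Atrial genes are red in VCP TG 3 and 4, red cell genes most of all in VCP TG 3, stress and acute-phase genes in WT 3 and 4, and Esrra, Uqcrc1 and Kcnj11 are blue in VCP TG 4.

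Antioxidant genes, the metallothioneins included, were balanced, with 13 of 26 above and 13 below the median of all genes, and had a shift of 0.18 without VCP TG 3 and 4. Gpx1, the cytosolic glutathione peroxidase, was higher without overlap, at 115, 191, 237 and 134 in VCP TG, against 108, 110.1, 74.6 and 64.9 in WT, and Gpx3, the secreted form, had 288, 517, 1717 and 1225 in VCP TG, against 389.9, 380.5, 383 and 328 in WT, highest in VCP TG 3 and 4 and below WT in VCP TG 1. Ribosomal protein genes had a shift of 0.18 (35 above and 13 below, of 48 tested). Rps24 had 1375, 1522, 1031 and 1801 in VCP TG, against 1266, 1255, 620.2 and 489 in WT and was lowest in WT 3 and 4, and without that pair the shift of the list was 0.05. Rps12 and Rps27 were listed at 0 in all 8 libraries although every cell uses them, so a listed 0 in this table can be a failed estimate. Immediate early genes, which react fast to stimuli and include transcription factors, had a shift of 0.38 (19 above and 7 below, of 26). That shift was 0.071 without VCP TG 3, 0.13 without VCP TG 3 and 4 and 0.83 without WT 3 and 4. Fos, an AP-1 subunit, stood at 29.7, 25.8, 333 and 30.3 in VCP TG, against 3.87, 34.5, 8.05 and 25.1 in WT, VCP TG 3 standing apart and WT 1 lowest.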

How the data were processed

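The table used, deposited by the authors for the 15 libraries of 2 weeks, lists 30735 Ensembl genes. Its deposited values were taken as TPM because every column adds up to 1000000. The submitters' processing notes name STAR 2.5.4b, kallisto 0.43.1, Trimmomatic 0.35, DESeq2 and GRCm38, without saying which made the table. Read depth is unknown, so no counting interval is given. GENCODE release M21 held 30074 of the identifiers. Columns were assigned to samples by name, and no pair of libraries was identical.

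The 8 sham libraries were compared with limma (version 3.58.1, under R 4.3.3) on log2(TPM + 1), with variance trend and robust moderation, two-sided. A gene entered if 3 or more libraries reached 1 TPM, and p-values were adjusted by Benjamini-Hochberg over every gene that entered. The fit was repeated on rescaled TPM. It was also run on simulated data in which both groups had a spread taken from WT. That run therefore does not cover the wider spread of VCP TG. Log2 differences on this scale understate the change of low genes. Single values were compared by exact permutation over 70 arrangements.

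Named genes are Vcp, Myl7, 7 hypertrophy genes, the globins, genes past the threshold of 0.05, up to 12 per direction with the widest gap between groups that overlapped in neither view, and up to 4 members with the largest difference of each of 42 lists (883 entries, 880 found). Of the genes these rules name, 2 are not reported here. Other list members were chosen after their values were seen. The members of the comparison and the lists were chosen with earlier results of these data known. Alternatives covered left-out libraries, a replicate block, pseudocounts, filters, scalings, library weights and the variance model.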

Additional observations from a re-analysis of the deposited data

Results flagged for a closer look

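Values of 1 library that stood far from the other 3 of its group were looked for in 76 groups of 4 libraries, by Dixon's ratio of gap to range, and 4 were found; chance alone flags about 1 group in 20. The share of receptor genes above 0 in WT sham library 1 was 15.2%, against 30% to 32.0% in the other WT libraries. Hba-a1 in WT sham library 2 was at 5.23 on the log2 scale of rescaled TPM, against 3.73 to 3.98 in the others. Hlf in VCP TG sham library 4 was at 5.53 on that scale, against 5.70 to 5.72 in the others, which lay unusually close together. Gm21088 in WT sham library 4 was at 1.22 on the log2 scale of deposited TPM, against 0 in the other 3 WT libraries.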

How the results depend on the processing

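The count of genes called by limma on deposited TPM (2) moved with nearly every choice. It was 0 with the 4 groups of the table fitted together, with a pseudocount of 0.1 or 5, with no filter, with quantile normalization, and without trend and robust moderation; 3 with a mean of at least 5 TPM; 8 with library weights; 1 without VCP TG 3 and 4; and 14 without WT 3 and 4. Leaving out 1 library gave 1 to 62 calls. On rescaled TPM the count was 0 to 1 with 1 library left out and 0 in all other alternatives run. Genes without overlap numbered 180 to 777 (deposited) and 620 to 1964 (rescaled) with 1 library left out, 1802 and 2975 without VCP TG 3 and 4, and 550 and 1344 without WT 3 and 4; fewer libraries separate more easily by construction. Vcp kept its direction in all alternatives run, at 0.72 to 1.16 (deposited) and 0.68 to 1.10 (rescaled) with 1 library left out. Myl7 was -0.077 (deposited) and -0.35 (rescaled) without VCP TG 3 and 4. The difference in mitochondrial share was -9.47 to 5.50 percentage points with 1 library left out and 0.952 without WT 3 and 4, and that of ENSMUSG00000089855 was -4.55 to 2.71 and 0.192. Of 344 pairs of named gene and view, 65 changed sign in at least 1 alternative, in 102 of 6595 values; the cause was not tested.

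Replicate numbers recur in both groups. Deviations of same-numbered libraries correlated by 0.0746 to 0.271 (deposited) and 0.0188 to 0.207 (rescaled), not above 0.1 in all pairs, so the numbers were not taken to pair the libraries. A limma fit that took these numbers as a replicate block called 2 genes on deposited TPM and 0 on rescaled TPM. Of the 2, only 1 (Gm21088) was also called without the block, and ENSMUSG00000071466 had a limma adjusted p of 0.201 with it.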

Other observations

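The Y chromosome gave a pattern beyond Gm21088, found after the values were seen. The single-copy genes Ddx3y, Eif2s3y, Kdm5d and Uty lay between 7.46 and 27.6 TPM in all 8 libraries. Of the other 54 Y genes tested, many of them members of families with near-identical copies, 45 had a higher mean in VCP TG and 9 a lower one, with a median log2 difference of 0.84 beside -0.03 for all genes, and 7 did not overlap between the groups, all higher in VCP TG, beside 0.396% of all genes. Their summed TPM was 370, 283, 1265 and 588 in VCP TG, against 134, 463, 328 and 367 in WT, so the sums overlapped and VCP TG 3 was the highest. Sly, a Y gene of spermatids, had rescaled TPM values of 10.5, 8.49, 19.3 and 12.3 in VCP TG, against 1.67, 5.56, 4.45 and 4.64 in WT. Copies share reads, so these genes are not independent values.

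Among the 14840 genes with rescaled values, some genes had small unadjusted limma p-values with no overlap, none past the adjusted threshold; they too were picked after their values were seen. Ccdc40, which builds the axoneme of motile cilia, had 3.00, 2.17, 3.23 and 4.89 in VCP TG, against 0.343, 0.0846, 0.135 and 0.583 in WT (log2 difference 1.73 ± 0.30). Nrg1, the neuregulin ligand of ERBB receptors on cardiomyocytes, had 1.84, 2.19, 4.02 and 2.06 in VCP TG, against 0.549, 0.817, 0.316 and 0.357 in WT (1.20 ± 0.29). For both genes all WT values lay under 1 rescaled TPM, so both passed the filter through VCP TG alone. The olfactory and vomeronasal receptor genes, also near 0, had a mean rescaled TPM of 0.384 in VCP TG and 0.191 in WT, with overlap between libraries. Adra1a, the alpha-1A adrenergic receptor, had 27.5, 24.6, 14.8 and 16.1 in VCP TG, against 42.4, 36.1, 47 and 36 in WT (-0.96 ± 0.24). Lrrc47 had 21.9, 19.2, 26.5 and 14.3 in VCP TG, against 45.9, 37.4, 50.3 and 41.9 in WT (-1.09 ± 0.22).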
